A study of Mus musculus with 2 samples.

Results

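Expression of 10 genes that mark scavenging and tissue-resident macrophages, Cd163, Mrc1, Msr1, Lyve1, Stab1, Folr2, Cbr2, F13a1, Pf4 and Vsig4, was followed in single myeloid cells from mouse breast tumors. The 10 genes were chosen by name, with earlier results of these data known, and all 10 were among the 28692 genes in the count tables. The cells came from orthotopic 4T1 tumors, a BALB/c triple-negative breast carcinoma line, grown in the mammary fat pad of female BALB/c mice of 8 to 10 weeks and treated with an anti-PD1 antibody for 2 weeks. The 4T1p tumors arose from the parental line and resist the antibody, whereas the 4T1m tumors arose from a polyclonal, chemically mutagenized derivative that responds to it. Both groups received anti-PD1, so no untreated cells were compared. Cells carrying GR-1, the shared antigen of Ly6C and Ly6G, were selected magnetically from dissociated tumors and sequenced as 1 library of each tumor type. The number of mice in a library was not given in the sources used here.

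The libraries labelled 4T1p and 4T1m held 1641 and 2749 barcodes with 9021132 and 14840190 unique molecular identifiers (UMIs), and 1128 and 2092 barcodes were kept. The study's text gives the median depths of both tumors the other way round, so every direction below rests on the labels of the libraries. By these labels some genes also went opposite to the directions the study reports, as given below. No barcode was shared by the libraries (0 of 4390). With 1 library of each tumor type there was no test between them, and the intervals given are exact 95% intervals that cover counting error only. Clusters built without the 10 genes gave 1840 monocytic-like barcodes, 852 in the library labelled 4T1p and 988 in that labelled 4T1m, and 1276 granulocytic-like barcodes, 253 and 1023. The GR-1 label was carried at the transcript level by few barcodes of either lineage. Ly6c2 had a UMI in 2.93% and 4.66% of the monocytic-like and in 4.74% and 3.32% of the granulocytic-like barcodes. Ly6g had 1 and 6 UMIs in the monocytic-like barcodes. In the granulocytic-like ones it stood at 284 and 225 CPM (counts scaled to a total of 1000000 UMIs), found in 11.1% and 13.3% of barcodes.

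Macrophages clear proteins, lipoproteins and dying cells through receptors that bind a wide range of ligands, and many tissues hold long-lived resident macrophages that are rich in such receptors. Cd163 takes up complexes of hemoglobin and haptoglobin. Mrc1 encodes the mannose receptor CD206, Msr1 the class A scavenger receptor, Stab1 the receptor stabilin-1, and Lyve1 a hyaluronan receptor shared with lymphatic endothelium. Folr2 encodes folate receptor beta, Cbr2 a carbonyl reductase, and Vsig4 a complement receptor of the immunoglobulin superfamily. F13a1 encodes the A subunit of coagulation factor XIII and Pf4 the chemokine CXCL4, both of which are also known from megakaryocytes and platelets.

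The genes lie on different chromosomes (build GRCm38) apart from Lyve1 and Folr2 on chromosome 7, and all are protein coding. Promoter sequence, taken from RefSeq on GRCm38.p6 as the 250 bases before the transcription start, was matched for 8 of the 10 genes, with 2 starts each for F13a1 and Folr2. Msr1 and Lyve1 were not matched. The promoters of Cd163 and Cbr2 are shown because these genes were among the most concentrated in a single macrophage state, and those of Mrc1 and Stab1 because they were more widely detected. Capitals mark the core motif of the myeloid factor PU.1 (GAGGAA, or TTCCTC on the other strand) and the half-site motif TGCTGA of MAF factors. Both were sought on both strands.
Cd163, chr6:124304401-124304650, plus strand: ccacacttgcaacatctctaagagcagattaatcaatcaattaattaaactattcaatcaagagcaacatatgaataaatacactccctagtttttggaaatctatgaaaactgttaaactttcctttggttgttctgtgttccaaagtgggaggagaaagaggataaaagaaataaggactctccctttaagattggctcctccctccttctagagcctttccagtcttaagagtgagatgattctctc
Cbr2, chr11:120732022-120732271, minus strand: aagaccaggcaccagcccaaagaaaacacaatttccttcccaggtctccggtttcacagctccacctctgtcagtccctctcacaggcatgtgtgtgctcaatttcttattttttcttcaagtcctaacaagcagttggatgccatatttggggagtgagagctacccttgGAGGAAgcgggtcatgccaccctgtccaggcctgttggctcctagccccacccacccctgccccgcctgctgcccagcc
Mrc1, chr2:14229164-14229413, plus strand: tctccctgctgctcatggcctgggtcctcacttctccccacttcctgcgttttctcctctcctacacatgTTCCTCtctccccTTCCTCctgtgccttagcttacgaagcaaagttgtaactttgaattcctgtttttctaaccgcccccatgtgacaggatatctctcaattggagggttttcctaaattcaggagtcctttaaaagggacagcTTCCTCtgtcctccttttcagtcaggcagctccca
Stab1, chr14:31168642-31168891, minus strand: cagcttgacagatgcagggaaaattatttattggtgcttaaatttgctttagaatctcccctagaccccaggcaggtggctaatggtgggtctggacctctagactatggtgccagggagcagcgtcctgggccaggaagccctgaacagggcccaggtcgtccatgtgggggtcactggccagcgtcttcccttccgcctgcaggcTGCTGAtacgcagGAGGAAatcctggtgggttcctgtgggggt

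The Mrc1 window held the PU.1 core at 3 places, 174, 161 and 29 bases before the start. The Stab1 window held a MAF motif 37 bases and a PU.1 core 24 bases before the start, and the Cbr2 window held a PU.1 core 73 bases before it. None of these letters occurred in the Cd163 window. Among all 10 promoters of the 8 genes, 6 held the PU.1 core and 3 the MAF motif, against 23.3% and 16.1% of the 32851 promoters in the table. Those with the MAF motif were both starts of Folr2 and the start of Stab1. The E-box CACGTG was in 0 of the 10 and in 6.02% of all promoters. The motifs did not overlap each other, and a match of letters does not show that a factor binds.

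The 10 genes were first compared between the lineages. They were detected almost wholly in monocytic-like barcodes, which held 28530 of their 29067 UMIs (98.2%), and the share of each gene ran from 96.2% for Lyve1 to 100% for Vsig4. Summed over the genes, the level was 1815 CPM (95% interval 1776 to 1854) in the monocytic-like and 95.5 CPM (75.6 to 119) in the granulocytic-like barcodes of the library labelled 4T1p. The corresponding levels in the library labelled 4T1m were 2838 CPM (2799 to 2877) and 138 CPM (125 to 151). The lineages thus differed by 4.25 and 4.36 on the log2 scale in the libraries. The second value was 5.40 without the barcodes of the highest Scrublet (doublet) scores and 3.40 with the lineage set per barcode.

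Each of the 9 genes with enough UMIs was at least 2-fold higher in the monocytic-like barcodes of both libraries, but so were 41.6% of all genes tested. In the libraries labelled 4T1p and 4T1m, respectively, Mrc1 stood at 354 and 519 CPM in the monocytic-like barcodes, against 14.5 and 11.1 CPM in the granulocytic-like ones. Msr1 stood at 494 and 803 CPM against 21.8 and 33.3 CPM. Pf4 stood at 462 and 843 CPM against 21.8 and 57.8 CPM. Both receptors and the chemokine were thus higher in the monocytic-like barcodes of each library, beyond the counting intervals. The highest granulocytic-like level was that of F13a1 in the library labelled 4T1p (26.6 CPM on 22 UMIs) and that of Pf4 in the library labelled 4T1m.

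Folr2 and Lyve1 had 0 UMIs in the granulocytic-like barcodes of the library labelled 4T1p, where 3 counts correspond to 3.63 CPM. Against this floor of 3 counts their monocytic-like levels were higher by 4.12 and 2.09 on the log2 scale. In the library labelled 4T1m Folr2 had 18 and Lyve1 8 UMIs there, and the log2 differences were 3.23 and 2.83. Vsig4 had 3 and 44 UMIs in the monocytic-like barcodes and 0 in the granulocytic-like ones. Whether these granulocytic-like UMIs came from free RNA, doublets or another source was not tested. In the library labelled 4T1m, 2 of the 1023 granulocytic-like barcodes had a UMI of at least 5 of the genes. A Cd163 UMI occurred in 0.395% and 0.293% of granulocytic-like barcodes (median depth 2717 and 2481 UMIs), compared with 3.29% and 4.86% of monocytic-like barcodes (median depth 1614 and 4122 UMIs). For Mrc1 the shares were 3.56% and 3.03% against 31.7% and 50.1%.

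The monocytic-like barcodes were split into 9 states, again without the 10 genes, to ask how these genes varied among macrophages. One state, led by Ednrb, Tmem8, Gja1, Tppp3, Mfsd6 and Stard8, stood apart and is called the Ednrb and Gja1 state here. It held 82 of the 1840 barcodes (4.46%), 20 in the library labelled 4T1p and 62 in that labelled 4T1m, which made up 2.35% (1.44 to 3.6) and 6.28% (4.84 to 7.97) of the monocytic-like barcodes. Each of the 12 monocytic markers was detected in 25% or more of its barcodes. The state held 5.37% of the monocytic-like UMIs but 84.6% of those of Cd163, 79% of those of Lyve1 and 63.2% of those of Cbr2. Its share was 46.8% for Vsig4, 25.7% for Folr2, 25.6% for Mrc1, 22.2% for F13a1, 16.6% for Pf4 and 16.5% for Stab1, and 4.81% for Msr1. The other states differed widely in depth. The Gatm and Acly, Tmem176b and AW112010, and Fabp5 and Ada states had medians of only 1008, 1176 and 1040 UMIs. The Mmp12 and Lonrf3, Thbs1 and Slpi, and C6 and Cp states had 10120, 12044 and 15724. In the Fabp5 and Ada state 8 of the 12 monocytic markers reached 25% of barcodes.

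**Figure D1:**
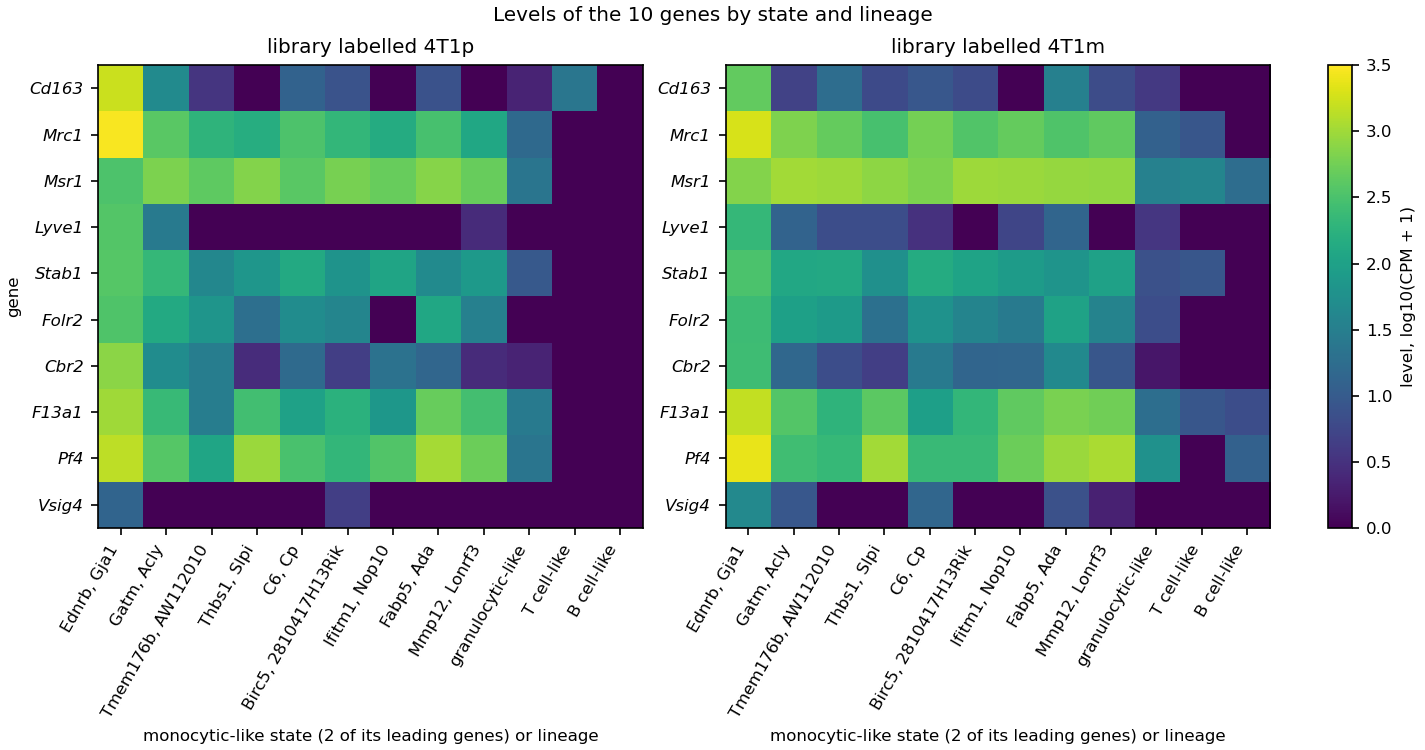
Level of the 10 genes (rows, log10 of CPM + 1 as color) in the 9 monocytic-like states and in the granulocytic-, T cell- and B cell-like barcodes (columns, named by leading genes), with a panel for each library. The Ednrb and Gja1 column is the highest for every gene except Msr1 in both libraries, and the granulocytic-like column lies between 0 and 57.8 CPM.

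In both libraries 9 of the 10 genes had their highest level in this state, and 8 of the 9 genes tested in both were at least 2-fold above the other monocytic-like barcodes in each, compared with 2.90% of all genes. The exception was Msr1. With at most 5% of mitochondrial UMIs 5 genes passed in both libraries, without F13a1 and Pf4 and without Cd163, which then had too few UMIs in the library labelled 4T1m (10 in the state and 4 elsewhere). The matching state then held 220 barcodes, of which only 26 belonged to the Ednrb and Gja1 state. The states were clustered on genes that vary together with these markers, and the 10 genes were chosen with earlier results known. This is therefore a description and not a test. The state was also deeper, at a median of 6996 and 6507 UMIs against 1575 and 3611 in the other monocytic-like barcodes, and its median share of mitochondrial UMIs was 4.95% and 5.85% against 3.12% and 4.69%.

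Among the hemoglobin, mannose and hyaluronan receptors, Cd163 (chr6:124304656-124330527, plus strand) was concentrated in the state. In the state it reached 1664 CPM (1472 to 1874; 271 UMIs in 11 of 20 barcodes) in the library labelled 4T1p and 456 CPM (396 to 521; 212 UMIs in 20 of 62 barcodes) in that labelled 4T1m. In the other monocytic-like barcodes it stood at 10.2 and 6.46 CPM, and the log2 differences were 7.35 (6.89 to 7.84) and 6.14 (5.66 to 6.65). The next state, led by Gatm and Acly in one library and by Fabp5 and Ada in the other, held only 46.7 and 32.2 CPM, with intervals that did not reach those of the first.

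Lyve1 (chr7:110850607-110863239, minus strand) followed the same order at 362 CPM (276 to 467) and 213 CPM (173 to 259) in the state, against 2.71 and 4.51 CPM elsewhere. It was found in few cells, 7 of 20 and 17 of 62 barcodes of the state and 5 of 832 and 9 of 926 of the others. Of the monocytic-like barcodes with a Lyve1 UMI, 7 of 12 and 17 of 26 therefore belonged to the state, and 5 granulocytic-like barcodes of the library labelled 4T1m had one as well. The endothelial markers had 1 and 8 UMIs in the state, where Kdr, Cdh5 and Flt1 were at 0 in the library labelled 4T1p and Prox1, Tie1 and Emcn at 0 in both.

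Mrc1 (chr2:14229392-14332057, plus strand) was present throughout and higher in the state. It had 2898 CPM (2643 to 3172; 19 of 20 barcodes) and 1917 CPM (1794 to 2048; 58 of 62 barcodes) there, compared with 261 and 421 CPM in the other barcodes, of which 30.2% and 47.2% had a UMI. The log2 differences were 3.48 and 2.19. The Gatm and Acly state came next in both libraries, at 401 and 660 CPM, and the lowest states held 122 and 306 CPM.

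Stab1 (chr14:31139013-31168641, minus strand) showed a smaller contrast, with 375 and 327 CPM in the state against 107 and 90.6 CPM elsewhere, or 1.81 and 1.85 on the log2 scale. Folr2 (chr7:101839988-101857194, minus strand) stood at 344 and 252 CPM against 52.7 and 40.0 CPM, or 2.71 and 2.65. For these receptors the libraries gave nearly the same contrast, whereas for Cd163 and Mrc1 it was larger in the library labelled 4T1p, with intervals that did not overlap.

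Cbr2 (chr11:120729489-120732114, minus strand) resembled Cd163 in being concentrated in the state, but was found in more of its cells. It had 780 CPM (650 to 928; 18 of 20 barcodes) and 256 CPM (212 to 306; 36 of 62 barcodes), against 15.4 and 11.3 CPM elsewhere, with log2 differences of 5.66 and 4.50. Vsig4 (chrX:96247203-96293438, minus strand) was scarce, with 47 UMIs in all kept barcodes. In the state it had 2 UMIs in 1 barcode and 20 UMIs in 2 barcodes, 19 of them in a single barcode. Its order among the states in the library labelled 4T1p was within counting error.

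The class A scavenger receptor Msr1 (chr8:39581685-39642673, minus strand) had the flattest profile. Its lowest and highest states differed 2.19-fold in the library labelled 4T1p (332 to 726 CPM) and 1.59-fold in that labelled 4T1m (645 to 1024 CPM). The Ednrb and Gja1 state was its lowest in the first library at 332 CPM (249 to 433) and was at 709 CPM (635 to 790) in the second, with log2 differences of -0.59 and -0.19 from the other barcodes. The first-ranked states for Msr1 did not differ from the next beyond their intervals. A UMI of Msr1 was found in 52.9% and 71.5% of all monocytic-like barcodes.

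The secreted factors were highest in the state and had further states of high level. F13a1 (chr13:36867178-37050244, minus strand) had 1001 and 1524 CPM in the state against 168 and 348 CPM elsewhere, and the Fabp5 and Ada state followed at 486 and 631 CPM. Pf4 (chr5:90772435-90773383, plus strand) had 1437 CPM (1259 to 1633) and 2390 CPM (2252 to 2535) in the state against 426 and 735 CPM elsewhere. The Fabp5 and Ada state held 1078 and 953 CPM of Pf4, the Mmp12 and Lonrf3 state 513 and 1146 CPM and the Thbs1 and Slpi state 929 and 1025 CPM, while the Tmem176b and AW112010 state held 112 and 219 CPM. Platelet markers were nearly absent, at 9.16 and 6.88 CPM summed over 6 genes in the monocytic-like barcodes and 1 UMI in the state in each library. Gp9, Gp1bb and Tubb1 were at 0 in all of these. Under a limit of 5% of mitochondrial UMIs, the matching state held 220 barcodes and 26 of these 82, and in the library labelled 4T1p its log2 difference was -0.27 for F13a1 and -0.89 for Pf4.

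The levels in the state were carried by a part of its cells. The 3 barcodes with the most UMIs held 67.2% and 62.3% of the Cd163 UMIs of the state, 79.7% and 62.6% of those of Lyve1 and 39.4% and 25.2% of those of Cbr2. The median barcode of the state had 1.5 and 0 UMIs of Cd163, 5 and 1 of Cbr2, and 9 and 7.5 of Mrc1. The median barcode therefore held Mrc1 and Cbr2 in both libraries, whereas none of the 3 genes Cd163, Lyve1 and Cbr2 was detected in 2 of 20 and 22 of 62 barcodes of the state. All 3 were detected in 6 and 10 barcodes.

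**Figure D2:**
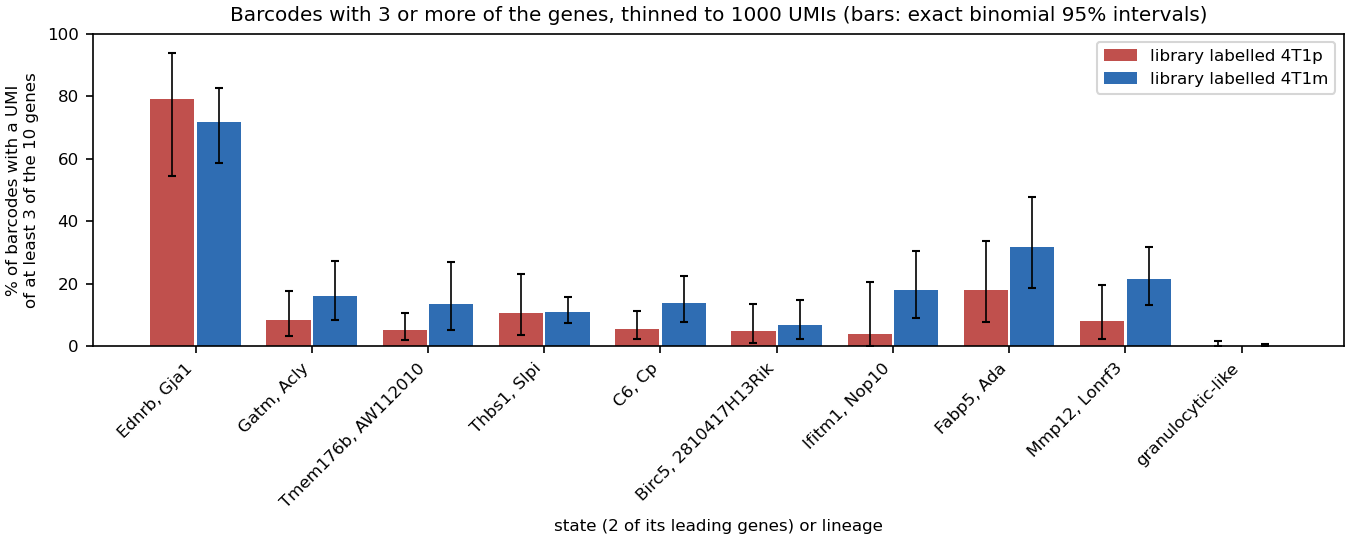
Percent of barcodes with at least 3 of the 10 genes after each barcode was thinned to 1000 UMIs, by state and library, with exact binomial 95% intervals. The Ednrb and Gja1 state stands at 78.9% and 71.7%, above the other states, of which the highest is the Fabp5 and Ada state at 17.9% and 31.8%. In that shallow state only 39 of 75 and 44 of 92 barcodes were deep enough to be thinned.

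Detection of several genes in the same cell was examined next. A barcode of the state had a median of 7 and 5.5 of the 10 genes, and 7 or more were found in 12 of 20 (60%) and 24 of 62 (38.7%). The other monocytic-like barcodes had a median of 1 and 2 genes, and 1.32% and 1.51% had 7 or more. To remove the difference in depth, a fixed number of 1000 UMIs was drawn once at random from each barcode (thinning). The 295 and 233 monocytic-like barcodes below that depth were left out. At least 3 of the genes were then present in 78.9% (54.4 to 93.9) and 71.7% (58.6 to 82.5) of the state, in 7.25% and 14.7% of the other monocytic-like barcodes and in 0% and 0.107% of granulocytic-like barcodes. Over all monocytic-like barcodes the thinned share was 9.69% and 19.2%, and the unthinned share 27.5% and 47.9%.

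The pairs of genes fell into different ranges. After thinning, Cd163 and Lyve1 shared 2 barcodes where independent detection would give 0.117 in the library labelled 4T1p, and 4 where it would give 0.327 in that labelled 4T1m. Cd163 and Folr2 shared 7 barcodes (0.700 under independence) and 8 (0.931). Lyve1 and Cbr2 shared 3 (0.215) and 8 (0.362). These ratios of 8.59 to 22.1 rest on few barcodes, and for Cd163 and Cbr2, with 6 and 2 shared barcodes, the ratio was 10.7 in one library and 3.78 in the other. Mrc1 and Msr1, by contrast, were together in 41 and 109 barcodes, which was 1.09 and 1.06 times the independent value, and F13a1 and Pf4 in 17 and 75, which was 1.75 and 1.5 times.

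**Figure D3:**
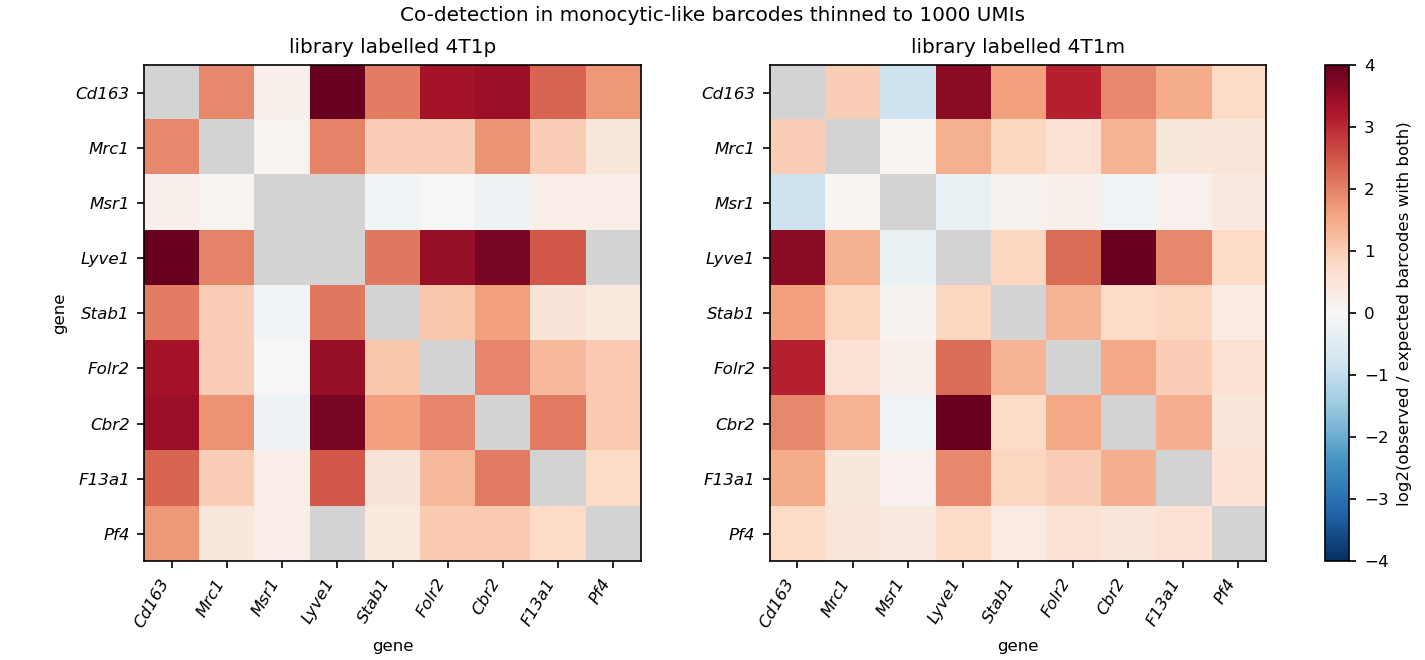
Co-detection of 9 of the genes (Vsig4 left out) in monocytic-like barcodes thinned to 1000 UMIs, as log2 of observed over expected barcodes with both genes, a panel for each library. Grey cells had no barcode with both genes or lie on the diagonal, and the pairs of Cd163 with Lyve1, Folr2 and Cbr2 lie well above those with Msr1.

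Within the state itself, Cd163 and Msr1 were together after thinning in 1 of 19 and 0 of 60 barcodes, where independence would give 2.11 and 5.40. Without thinning they shared 9 of 20 and 10 of 62 barcodes, against 7.70 and 14.5. Cd163 and Lyve1 shared 6 and 10 barcodes unthinned, against 3.85 and 5.48. All of these counts are small, and the thinned ones come from 1 random draw.

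The profiles over states and libraries were compared next. Over the 18 groups of state and library, Pearson's r of log2(CPM + 10) was 0.96 between Cd163 and Lyve1, 0.93 between Cd163 and Cbr2, and 0.91 between Lyve1 and Cbr2. Mrc1 reached 0.85 with Cd163 and 0.86 with Lyve1, and Folr2 0.79 with Cd163. The value was 0.86 between F13a1 and Pf4 and -0.33 between Cd163 and Msr1. Among 7508 other genes, the closest were Clec10a for Cd163 (r = 0.91), Retnla for Lyve1 (0.93), Ap1b1 for Cbr2 (0.89), Maf for Mrc1 (0.94), Nrp1 for Stab1 (0.93) and Lamp1 for Folr2 (0.91). For the other genes they were Ccl6 for F13a1 (0.87), Cd93 for Pf4 (0.89) and Sept7 for Msr1 (0.87). These groups share libraries and differ in depth, and Vsig4 had too few UMIs. Outside the Ednrb and Gja1 state no group held more than 46.7 CPM of Cd163, 27.1 CPM of Lyve1 or 49.2 CPM of Cbr2. The r values of these genes therefore mainly restate the contrast of that state.

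Other genes known from resident macrophages were then examined in the state. Unlike the 10 genes, the genes of this list and of those below were not left out of the clustering. The lists were also chosen with earlier results of these data known, so their counts are a description and not a test. Of 21 listed, 19 were tested in the library labelled 4T1p and 13 of them were at least 2-fold higher in the state and 2 lower. In the library labelled 4T1m 13 of 18 were higher and 1 lower. Over all genes tested, 10.1% and 6.96% were past 2-fold higher in the state in the libraries labelled 4T1p and 4T1m, and 3.62% and 3.53% lower. The median log2 difference of the listed genes was 2.22 and 1.69, against 0.36 and 0.18 over all genes. Retnla, which encodes the secreted protein RELM alpha, stood at 602 and 963 CPM in the state and 1.13 and 1.5 CPM elsewhere. Ccl8, a chemokine, stood at 7798 and 1823 CPM against 642 and 186 CPM. Selenop, a selenium transport protein, stood at 3248 and 1855 CPM against 573 and 392 CPM.

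The transcription factor gene Maf had 933 and 583 CPM against 161 and 186 CPM, and Gas6, the ligand of the TAM receptors, 467 and 305 CPM against 55.4 and 49.1 CPM. Axl, one of those receptors, went the other way, at 12.3 and 19.3 CPM against 226 and 205 CPM. Timd4, a receptor for phosphatidylserine on resident macrophages, had 0 UMIs in the state in both libraries, which allows up to 18.4 and 6.45 CPM, and stood at 11.1 and 6.31 CPM elsewhere, so a difference was not detectable at this depth.

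Other scavenger receptors gave few calls. Of 12 listed, 8 were tested, and Colec12 alone was 2-fold higher in the state in the library labelled 4T1p (178 against 88.4 CPM) and none in that labelled 4T1m, while Cxcl16 was lower in both. Of 9 genes of heme and iron handling, Tfrc, the transferrin receptor, was higher in both libraries (55.3 and 38.7 CPM against 5.43 and 13.4 CPM). Fth1, the ferritin heavy chain, was lower (10586 and 10067 CPM against 23818 and 23905 CPM). The heme oxygenase gene Hmox1 stood at 565 and 1234 CPM against 465 and 702 CPM.

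Of 10 inflammatory genes, 0 were 2-fold higher in the state and 2 and 4 lower in the libraries, against the 3.62% and 3.53% of all genes, Il1b among them at 639 and 1247 CPM against 2414 and 4971 CPM. Of 6 genes of tumor macrophages, 0 were higher and 3 and 4 lower. Mmp12 had 0 and 18 UMIs in the state, and Spp1 stood at 319 and 729 CPM against 1963 and 2890 CPM. Of 6 genes of monocytes, 5 and 6 were tested, and 1 was past 2-fold higher and 1 lower in each library. Higher were Ccr2 in the library labelled 4T1p and Chil3 in that labelled 4T1m, and lower were Ly6c2 and Plac8, respectively. Over all genes tested, 10.1% and 6.96% were higher.

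**Figure D4:**
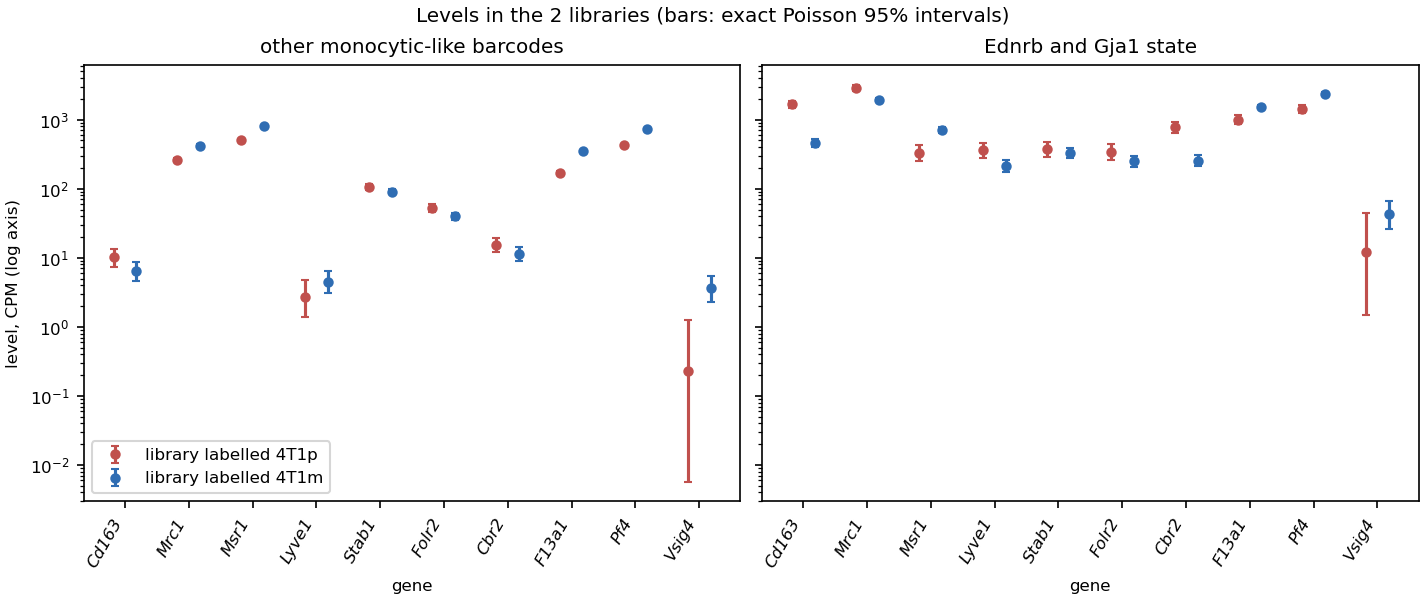
Level of each gene (CPM of summed UMIs, log axis, exact Poisson 95% intervals) in the libraries labelled 4T1p and 4T1m, for the other monocytic-like barcodes and for the Ednrb and Gja1 state. Mrc1, Msr1, F13a1 and Pf4 are higher in the library labelled 4T1m among the other barcodes, and in the state Mrc1, Cd163 and Cbr2 are lower in it.

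Finally, the libraries were compared. Summed over the 10 genes, the monocytic-like level was 0.64 higher on the log2 scale (0.61 to 0.68) in the library labelled 4T1m. F13a1 contributed the clearest gene, at 198 CPM (185 to 211) in the library labelled 4T1p and 425 CPM (410 to 441) in that labelled 4T1m, or 1.10 on the log2 scale (1.00 to 1.21). Pf4 differed by 0.87 (0.80 to 0.94), Msr1 by 0.70 (0.63 to 0.77) and Mrc1 by 0.55 (0.47 to 0.64). Without the barcode of each library with the most Pf4, an alternative chosen after the data were seen, the Pf4 difference was 1.05 (0.97 to 1.12), as the highest barcode of the library labelled 4T1p held 329 of its 2117 UMIs. These 4 genes had higher levels in the library labelled 4T1m, and thinned shares of barcodes went the same way, from 10.8% to 24.4% for F13a1, 16.2% to 27.2% for Pf4, 33.4% to 46.8% for Msr1 and 20.3% to 29.0% for Mrc1.

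The other genes had small or opposite differences. The log2 difference of Cd163 was -0.95 (68.9 and 35.8 CPM) and that of Cbr2 -0.64 (42.5 and 27.2 CPM), both lower in the library labelled 4T1m. Shares of barcodes with Cd163 did not follow its level, at 2.33% and 2.52% thinned and 3.29% and 4.86% unthinned. Stab1 (116 and 106 CPM), Folr2 (63.0 and 53.8 CPM) and Lyve1 (15.5 and 18.1 CPM) differed by -0.13, -0.23 and 0.23, of which the interval of Folr2 alone stayed clear of 0. Vsig4 stood at 0.654 and 6.18 CPM, on 2 and 8 barcodes.

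Past 2-fold in the monocytic-like barcodes were F13a1 and Vsig4, both higher in the library labelled 4T1m, as were 7.74% of all genes tested, and 0 of the 10 were lower, as were 2.44% of all genes. The call of Vsig4 rests on 3 and 44 UMIs, and 3 barcodes held 84.1% of the 44. F13a1 was at 0.98, short of 2-fold, where a Ptprc UMI was required of each barcode, and Pf4 was past 2-fold at most 5% of mitochondrial UMIs (1.14). As a mean over barcodes, which has no interval, the values of Pf4 and Mrc1 were above 2-fold (1.10 and 1.07). The value of Cd163 moved past 2-fold lower, to -1.11 with Ptprc, -1.04 with the granulocytic-like level subtracted, -1.16 without the highest barcodes and -4.32 at most 5% of mitochondrial UMIs (where Cbr2 was at -1.64), and it was -0.06 as a mean over barcodes. At the 5% limit Cd163 had only 10 UMIs in the matching state and 4 elsewhere in the library labelled 4T1m. In that labelled 4T1p it had 193 and 7. F13a1 and Vsig4 were also past 2-fold in the monocytic-like barcodes outside the Ednrb and Gja1 state, Vsig4 on 1 and 24 UMIs. The shares over all genes there were 8.0% higher and 2.57% lower. Other lists moved with this comparison. Of the 10 inflammatory genes, 5 were past 2-fold higher in the library labelled 4T1m and 0 lower, with a median log2 difference of 1.00 against 0.11 over all genes. They were Il1b (2351 and 4727 CPM), Il6 (62.6 and 150 CPM), Thbs1 (38.8 and 447 CPM), Ptgs2 (385 and 1616 CPM) and Cxcl3 (239 and 1031 CPM). Of the 12 monocytic markers H2-Ab1, a class II antigen presentation gene, was past 2-fold lower (4286 and 2108 CPM) and 0 higher. For gene expression of monocytic cells between the tumors, the study compared only those that it found enriched in either tumor. It reported Il1b, Ptgs2 and Cxcl3 higher in those of 4T1p and class II genes higher in those of 4T1m. By the labels of the libraries these directions are opposite to the ones here, and an exchange of labels was not tested. With flow cytometry the study also found macrophages carrying the mannose receptor, the product of Mrc1, more abundant in the resistant tumors. The Mrc1 RNA level was 0.55 higher on the log2 scale in the monocytic-like barcodes labelled 4T1m, though -0.60 in the Ednrb and Gja1 state. A share of cells by protein and an RNA level are different measures, and their relation was not tested. In the monocytic-like barcodes the granulocytic markers summed to 909 and 1323 CPM, with none of 8 at 0, and to 159388 and 161723 CPM in the granulocytic-like ones. The 3 erythroid markers summed to 10.5 and 1353 CPM, with 3 barcodes holding 99.0% of the Hbb-bs UMIs in the library labelled 4T1m. The part of these lists in the differences was not tested.

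In the Ednrb and Gja1 state the libraries differed in another way. The log2 difference of Cd163 was -1.87 (-2.13 to -1.60) and that of Cbr2 -1.61 (-1.98 to -1.24), both lower in the library labelled 4T1m, and these were the 2 genes of the 10 past 2-fold, as were 2.94% of all genes tested. Msr1 was 1.10 higher (0.68 to 1.54), the single gene past 2-fold in that direction, as were 6.03% of all genes. Mrc1 differed by -0.60 (-0.76 to -0.43) in the state and by 0.69 in the other monocytic-like barcodes. Its value was 0.41 in the matching state at most 5% of mitochondrial UMIs, where only 26 of 220 barcodes belonged to this state. F13a1 and Pf4 were 0.61 and 0.73 higher in the state, as they were outside it (1.05 and 0.79). Summed over the 10 genes, the levels of the state were 9204 and 8087 CPM.

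These values rest on 20 and 62 barcodes of 2 libraries. Without the barcode of each library with the most UMIs of the gene, an alternative chosen after the data were seen, the log2 difference was -2.22 for Cd163, -1.66 for Cbr2, -0.60 for Mrc1, 1.39 for Msr1 and 1.02 for Pf4. For Lyve1 it moved from -0.77 to -0.53, with an interval that then included 0. Within the state 2 of 17 other resident macrophage genes tested were higher in the library labelled 4T1m, Ccl24 and Fcna, and 5 were lower, Ccl8, Clec10a, Igf1, Fcgrt and Cd209d. The granulocytic list summed to 430 and 1126 CPM in the state, with Cxcr2, Il1r2 and Mmp9 at 0 in the library labelled 4T1p, and its part in these differences was not tested.

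**Figure D5:**
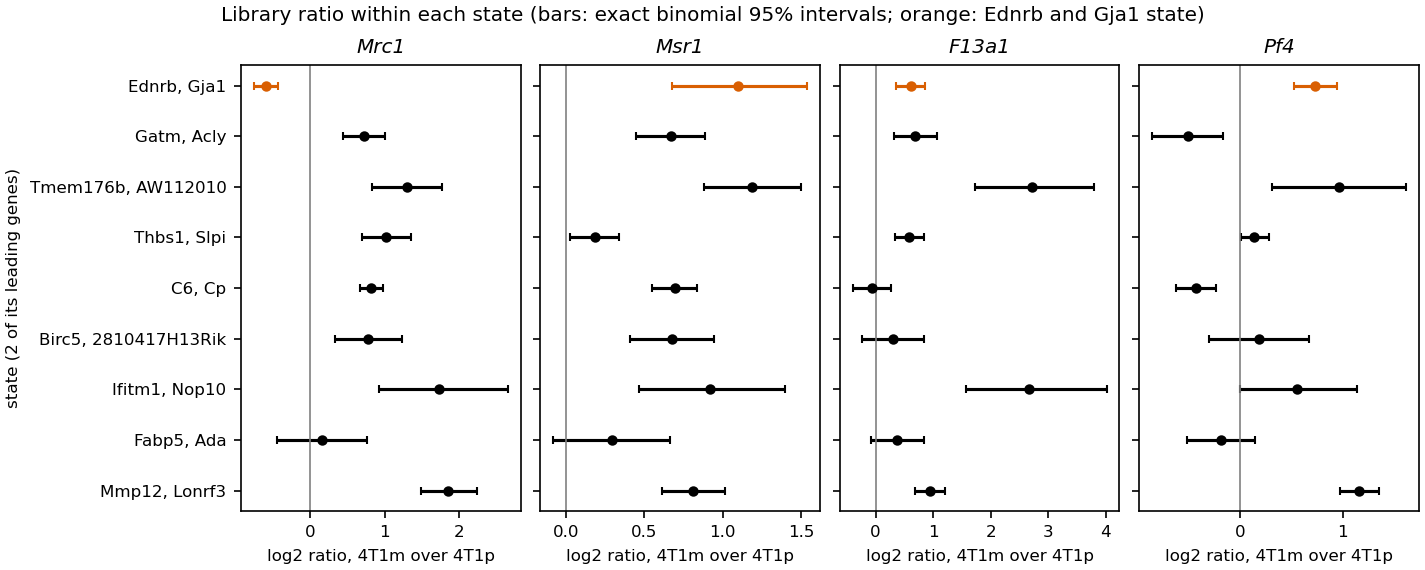
Log2 ratio of CPM, library labelled 4T1m over library labelled 4T1p, of Mrc1, Msr1, F13a1 and Pf4 in each of the 9 monocytic-like states (exact binomial 95% intervals, 0 marks equal levels). Msr1 lies above 0 in 9 of 9 states, and Mrc1 in 8 of 9, with the Ednrb and Gja1 state at -0.60.

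The states make up different shares of the libraries, so the comparison was repeated within each of the 9 states. Msr1 was higher in the library labelled 4T1m in 9 of 9 states, by 0.18 to 1.19 on the log2 scale, with 8 intervals above 0. Mrc1 was higher in 8 of 9, with 7 intervals above 0, up to 1.85 in the Mmp12 and Lonrf3 state (122 and 440 CPM). F13a1 was higher in 8 of 9, with 6 intervals above 0, up to 2.71 in the Tmem176b and AW112010 state (29.2 and 191 CPM). That largest value rests on 12 UMIs in 6 of 214 barcodes and 34 UMIs in 8 of 70.

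Pf4 was less uniform, higher in 6 of 9 states with 4 intervals above 0 and 2 below. Its log2 difference was -0.51 in the Gatm and Acly state (374 and 263 CPM) and -0.43 in the C6 and Cp state (316 and 236 CPM), and 1.16 in the Mmp12 and Lonrf3 state (513 and 1146 CPM). In the Thbs1 and Slpi state, which took up 5.52% and 23.3% of the monocytic-like barcodes of the libraries, Pf4 stood at 929 and 1025 CPM, on 522 UMIs in 9 of 47 barcodes and 3010 UMIs in 105 of 230. Stab1 and Folr2 could each be compared in 8 states and were higher in 4 and lower in 4, and no interval of Folr2 stayed clear of 0.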

How the data were processed

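Single-cell libraries of GR-1+ cells from 1 4T1p and 1 4T1m sample were analysed. The authors deposited unnormalized UMI counts, one matrix of genes and cell-called barcodes for a library, made with Cell Ranger on mm10 (3.1.0 in the file headers, whereas the methods name another version).

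Limits of 250 to 5000 genes, 27000 UMIs and 12.5% mitochondrial UMIs chose the barcodes kept, and 2 ribosomal RNA genes were left out. The authors' filter on Ptprc and their doublet removal were run as alternatives, the latter with Scrublet scores (scanpy 1.11.5, 1% per 1000 barcodes). A Ptprc UMI was present in 518 of the 1128 kept barcodes labelled 4T1p and in 1575 of the 2092 labelled 4T1m. SCTransform (sctransform 0.4.2, Seurat 5.3.0, R 4.3.3, 3000 variable genes, mitochondrial share regressed) gave 11 principal components and 11 Louvain clusters at resolution 0.8. The members were left out of the variable genes, of which 9 would have been among them. Clusters took names from marker lists, and the monocytic-like barcodes were clustered again into 10 states. The last, 40 barcodes led by Igfbp7, Sparc, Rgs5 and Postn (15 and 25 in the libraries labelled 4T1p and 4T1m), had a UMI of fewer than 6 of the 12 monocytic markers in at least 25% of its barcodes and was left out of the class by a rule set after the data were seen. It had 5 and 4 UMIs of the members.

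Levels are CPM of summed UMIs with exact Poisson intervals, shares have exact binomial (Clopper-Pearson) intervals, and log2 ratios an exact binomial interval (Python 3.11.15, scipy 1.17.1). A gene counted as past 2-fold with an interval clear of 0 and at least 20 UMIs in the 2 groups, and a floor of 3 counts replaced a group at 0. Median depths were 2015 and 2739 UMIs in the kept barcodes. In all, 11 alternatives were planned and 1 was added after the data were seen. The text names the members, the listed genes, the 6 leading genes of a state and the genes most like each member over states and libraries. The intervals treat UMIs as independent and so do not cover the spread between cells, mice or libraries. Scripts were tested on simulated data. The members and lists were chosen with earlier results of these data known.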

Additional observations from a re-analysis of the deposited data

Results flagged for a closer look

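Mrc1 was lower in the library labelled 4T1m in the Ednrb and Gja1 state, with a log2 ratio of -0.60, and higher in the other monocytic-like barcodes, with 0.69. The opposite signs drew attention to it, and the difference between the 2 values was not tested. With at most 5% of mitochondrial UMIs the value in the matching state was 0.41, but only 26 of that state's 220 barcodes belonged to the Ednrb and Gja1 state.

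Barcodes left out of all comparisons also held the genes. Those above the UMI limit, 56 in each library, had a summed level of 1244 CPM in the library labelled 4T1p and 2519 CPM in that labelled 4T1m. Those above the mitochondrial limit, 443 and 560, had 693 and 1193 CPM. All of these lie above the 95.5 and 138 CPM of the granulocytic-like barcodes.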

How the results depend on the processing

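Of 377 values of single genes under the alternatives, 367 had the direction reported and 298 lay within the 95% interval. In the Ednrb and Gja1 state over the other monocytic-like barcodes of the library labelled 4T1p, F13a1 and Pf4 turned to -0.27 and -0.89 at most 5% of mitochondrial UMIs, where the matching state held 220 barcodes with 26 (31.7%) of the 82. Under the other clusterings 86.6% to 98.8% were shared.

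The summed log2 ratio of the libraries (0.64) was 0.56 with a Ptprc UMI required, 0.60 without mitochondrial and ribosomal protein genes in the total and 0.92 as a mean over barcodes. The 2 genes past 2-fold higher in the library labelled 4T1m became 1 with Ptprc and 4 as a mean over barcodes. The mean over barcodes has no interval, so its 4 genes were counted on the value alone. The 8 genes past 2-fold in the state became 5 at most 5% of mitochondrial UMIs. The log2 difference between lineages in the library labelled 4T1p (4.25) was 4.62 without the highest Scrublet scores, 4.84 at most 5% of mitochondrial UMIs and 3.83 as a mean over barcodes. In the library labelled 4T1m (4.36) it was 4.60 with Ptprc, 5.40 without the highest Scrublet scores, 4.58 with at least 1000 UMIs, 3.40 with the lineage set per barcode, 4.55 without mitochondrial and ribosomal protein genes and 4.62 as a mean over barcodes. The shares with at least 3 of the genes (27.5% and 47.9%) were 57.7% and 66.2% with Ptprc, 21.2% and 42% at most 5% of mitochondrial UMIs, 39.8% and 58.3% with at least 1000 UMIs and 9.69% and 19.2% after thinning. The causes were not tested. No paired analysis was possible because each tumor type had 1 library, and no replicate could be left out.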
